A study of Mus musculus with 24 samples.

Results

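The 10 genes described here encode inhibitory checkpoint receptors of T cells and their ligands: the receptors Ctla4, Pdcd1 (PD-1), Lag3, Havcr2 (TIM-3), Tigit, Btla and Cd160, and the ligands Cd274 (PD-L1), Pdcd1lg2 (PD-L2) and Cd200. They were chosen by name, as co-inhibitory genes, out of 22009 named genes in the table of RNA sequencing values, and all 10 were found there and reached a mean of at least 1 RPKM (reads scaled to the length of the transcript and to the depth of the library) over the time course. The study asked how transcription in CD4+ T cells changes during the first 24 h of T helper differentiation. It sequenced 24 libraries of CD4+ T cells from the spleen of adult wild-type C57BL/6 mice, purified by negative selection on magnetic beads and, per the study's methods, pooled from several animals. The labels call them purified CD4 cells, whereas the methods speak of naive cells, and this difference was not resolved. Every cultured group shares the wild-type genotype and the stimulus of anti-CD3e and anti-CD28. Resting cells were purified and not stimulated (2 libraries, which the labels number as replicates). Th0 cultures received the stimulus alone. To it, recombinant IL-12 was added together with anti-IL-4 for Th1, and recombinant IL-4 together with anti-IL-12 and anti-IFN-γ for Th2. Each condition gave 1 library at each of 4, 8, 12, 16, 20 and 24 h. For the remaining 4 libraries, cells had 16 h of stimulation before actinomycin (Actinomysin in the labels), a drug that blocks transcription, was present for 0, 1, 2 or 4 h, and their skewing condition is not given.

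Checkpoint receptors restrain T cells that have already met antigen. CTLA-4 competes with the co-stimulatory receptor CD28 for CD80 and CD86, while PD-1, once bound by PD-L1 or PD-L2, recruits phosphatases that act on signalling from the T cell receptor and CD28. LAG-3 binds MHC class II, TIM-3 binds galectin-9 and phosphatidylserine, TIGIT binds the poliovirus receptor family, BTLA and CD160 share the ligand HVEM (Tnfrsf14), and CD200 signals to cells that carry CD200R. Most of these molecules appear on T cells after activation, and several of them stay high in exhausted T cells, which is why antibodies against them are used in cancer therapy.

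The libraries held 17512385 to 33017133 mapped reads, a number recovered from the steps between low values, with no table of counts used here. With this depth and a fitted transcript length, the values of Pdcd1, Tigit, Cd274 and Pdcd1lg2 were whole multiples of 1 read, which gives counting intervals for them. The depth behind single values of the other 6 genes is not known as whole reads. T cell markers were present throughout (summed level 2116 to 2134 RPKM at rest and 1397 to 1679 at 24 h, 8 of 9 markers in the table), and the CD8 T cell markers Cd8a and Cd8b1 summed to 12.4 to 12.7 RPKM at rest. Markers of other spleen cells were present at rest, and their sums were lower at 24 h. Those of monocytes and macrophages summed to 573 to 592 RPKM at rest and 8.14 to 12.7 RPKM at 24 h (10 markers), and those of B cells summed to 74.2 to 84.6 RPKM at rest and 10.1 to 19.3 RPKM at 24 h (8 markers). Those of NK cells summed to 161 to 163 RPKM at rest and 46.4 to 67.2 RPKM at 24 h (7 markers). One of these 7, Eomes, was called higher at 24 h, against the direction of the sum. Those of dendritic cells summed to 13.4 to 15.2 RPKM at rest and 4.54 to 7.40 RPKM at 24 h (8 markers). Those of granulocytes summed to 10.6 to 13.6 RPKM at rest and 0.795 to 2.77 RPKM at 24 h (5 markers, with Ly6g at 0 in every library of both groups), and those of red cells summed to 19384 to 21449 RPKM at rest and 73.4 to 107 RPKM at 24 h (4 of 6 markers in the table). The part of these cells in the results below was not tested. The resting libraries and the cultures carry different tags in their labels, so activation and any effect of the preparation cannot be told apart. The study describes a pool of cells from several animals, and nothing says that libraries of a group came from separate animals. The p-values therefore measure only the spread between these libraries. In the comparisons with rest, the Th0, Th1 and Th2 cultures of a time served as its libraries. Differences between conditions are thus part of that spread, and a gene that differs between conditions can miss a call for that reason.

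At rest Ctla4 was the most abundant transcript of the 10 and Havcr2 the least. Since RPKM is scaled to transcript length, levels can be set beside each other between genes. Ctla4 stood at 59.7 ± 4.32 RPKM (SD, n = 2 libraries), followed by Btla at 34.1 ± 0.894 RPKM and Cd200 at 20.2 ± 0.245 RPKM. Cd274, Cd160, Tigit, Lag3 and Pdcd1 lay between 13.8 and 7.82 RPKM, and in that order Cd160 and Tigit, as well as Lag3 and Pdcd1, were not separated by the spread of the 2 libraries. Pdcd1lg2 (1.65 ± 0.184 RPKM) and Havcr2 (0.595 ± 0.0904 RPKM) were lowest. After 24 h the order was different, with Cd200 first at 238 ± 49.0 RPKM (SD over the Th0, Th1 and Th2 libraries, n = 3), then Btla and Ctla4 with overlapping values, then Lag3, Pdcd1 and Cd274 between 48.8 and 41.5 RPKM with overlap between neighbours. Tigit, Cd160 and Pdcd1lg2 followed, again overlapping between neighbours, and Havcr2 was still the lowest at 1.14 ± 0.279 RPKM.

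Most of these genes were higher after activation than at rest, and they reached their highest levels at different times. A gene was called changed against resting cells at an adjusted p under 0.05 together with a difference of at least 2-fold, both on log2(RPKM + 0.5), a scale that understates changes of low genes. At 4 h 4 of the 10 genes had risen (Cd274, Pdcd1, Tigit and Pdcd1lg2), against 2.61% of all 10897 genes tested, and 1 had fallen (Lag3), against 7.97%. At 8 h Cd200 was added to those 4, which made 5 of 10 against 6.42% of all genes. At 12 h Tigit was below the 2-fold limit (0.94 on the log2 scale, adjusted p = 0.033, called in 3 of 14 alternatives), as Btla had been at 8 h (0.92, adjusted p = 0.008, called in 2 of 14). Lag3 and Btla were called higher at 12 h, and the same 6 genes (Pdcd1, Lag3, Btla, Cd274, Pdcd1lg2 and Cd200) were called at 12, 16, 20 and 24 h, against 10.7%, 11.2%, 12.9% and 12.7% of all genes. None had fallen at 24 h by limma, nor at an unadjusted p under 0.05, against 17.4% of all genes. The median difference of the 7 receptors was 0.23 at 4 h and 0.59 at 24 h and that of the 3 ligands 1.14 and 1.73, beside -0.04 and -0.04 over all genes. Ctla4, Havcr2 and Cd160 were called at no time point. The 6 comparisons share the 2 resting libraries. In bulk RNA, fewer cells that carry a transcript and less of it per cell cannot be told apart.

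**Figure D1:**
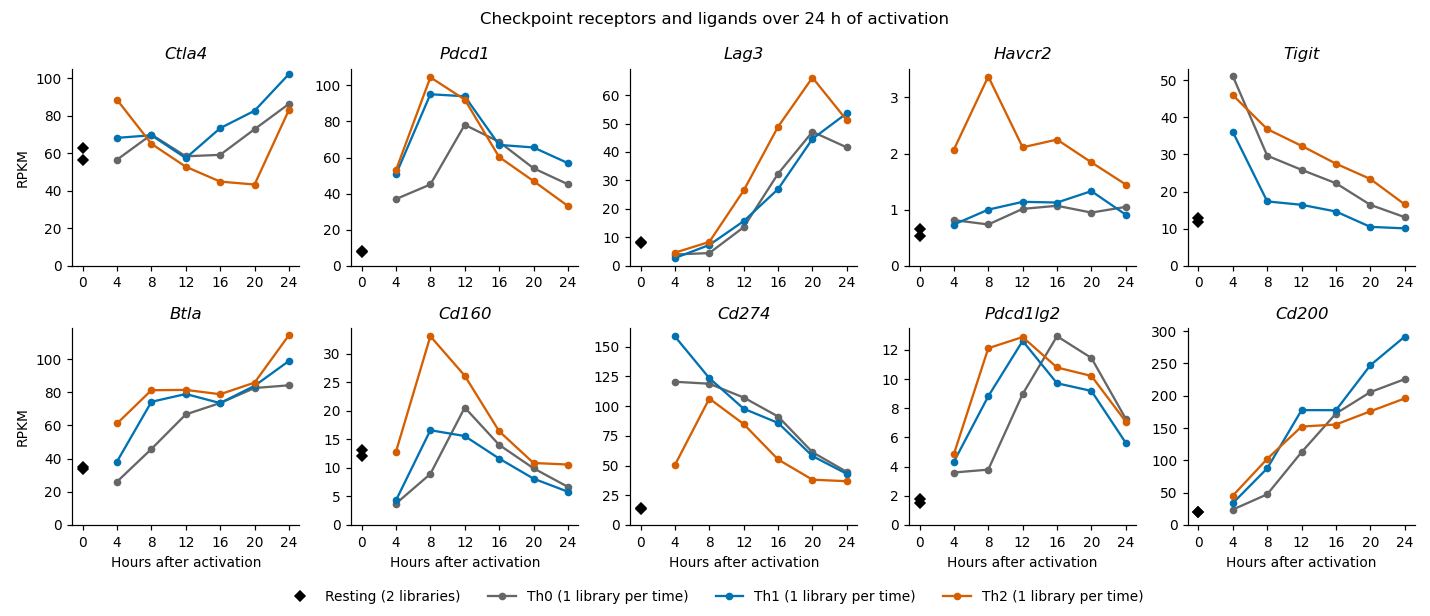
Level of each gene (RPKM, vertical axis, each panel with its own scale from 0) against hours after activation, with the 2 resting libraries as diamonds at 0 h and 1 library per point for Th0, Th1 and Th2. Tigit and Cd274 are highest in the first 8 h, Pdcd1, Cd160 and Pdcd1lg2 between 8 and 16 h, and Lag3, Btla and Cd200 at 20 or 24 h.

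**Figure D2:**
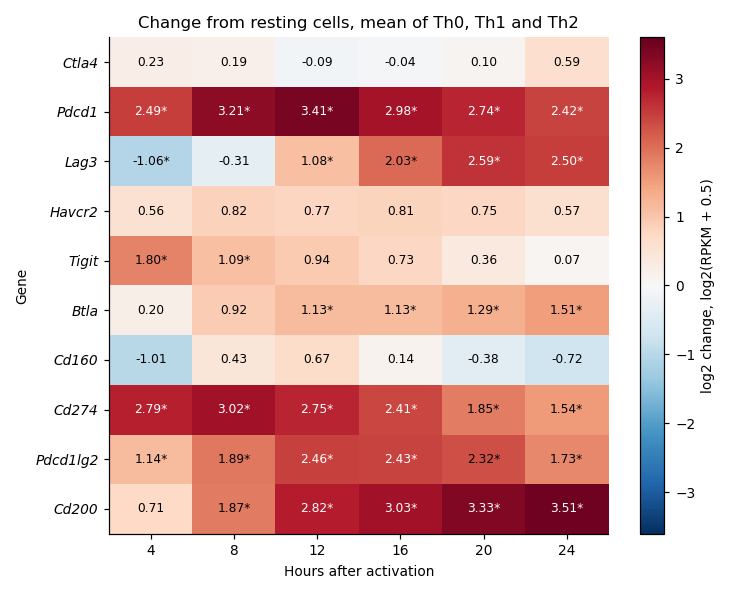
Difference of each time point (mean of the Th0, Th1 and Th2 libraries) from the 2 resting libraries, in log2(RPKM + 0.5), with asterisks where the adjusted p was under 0.05 and the difference at least 2-fold. Pdcd1 is called at all 6 times with its maximum of 3.41 at 12 h, and the difference of Cd200 grows from 0.71 at 4 h to 3.51 at 24 h.

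Cd274, the gene of PD-L1, showed the largest difference from rest of the 3 ligands at 4 h. It lies on chromosome 19 of GRCm38 (29367455 to 29388095, plus strand, ENSMUSG00000016496.7), and stood at 14.2 and 13.5 RPKM in the 2 resting libraries. In Th0 cultures it measured 121, 119, 107, 91.3, 61.2 and 44.6 RPKM from 4 to 24 h. In Th1 cultures it measured 159, 124, 97.8, 85.9, 58.0 and 43.0 RPKM at these times. In both conditions it was therefore highest in the first library and came down at every later step, and the 24 h value was 37.0% of the maximum in Th0 and 27.1% in Th1. In Th2 cultures it measured 50.5, 106, 84.9, 55.1, 38.1 and 36.8 RPKM, so that its maximum came at 8 h. All 18 cultures lay above both resting libraries. The mean difference from rest was 2.79 ± 0.34 (SE) at 4 h (adjusted p = 1.2e-05), 3.02 ± 0.34 (SE) at 8 h (adjusted p = 2.5e-06) and 1.54 ± 0.34 (SE) at 24 h (adjusted p = 7.9e-04).

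Pdcd1lg2, which encodes PD-L2, the other ligand of PD-1, is the next gene on the same strand (chromosome 19, 29410919 to 29471161, ENSMUSG00000016498.10) and starts 22823 bases beyond the end of Cd274. It was low at rest, with 1.78 and 1.52 RPKM from 58 and 59 reads (95% Poisson intervals 1.35 to 2.31 and 1.16 to 1.97 RPKM, covering counting error only). In Th0 cultures it measured 3.59, 3.79, 8.97, 12.9, 11.4 and 7.27 RPKM from 4 to 24 h, in Th1 cultures 4.33, 8.82, 12.6, 9.71, 9.19 and 5.63 RPKM, and in Th2 cultures 4.86, 12.1, 12.9, 10.8, 10.2 and 7.08 RPKM. The maximum thus came at 12 h in Th1 and Th2 and at 16 h in Th0, later than that of Cd274 in each condition. The difference from rest was 1.14 ± 0.31 (SE) at 4 h (adjusted p = 0.009), and 2.46 ± 0.31 (SE) at 12 h (adjusted p = 5.1e-06). The call at 4 h was lost without the second resting library (1.05 on the log2 scale) or the Th1 cultures (adjusted p = 0.072). It was also lost with a pseudocount of 1 (0.98 on the log2 scale), and 11 of the 14 alternatives kept it. An overlapping annotated gene, A930007I19Rik, could share reads with it, as AC119228.1 could with Cd274.

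Cd274 and Pdcd1lg2 are shown with the sequence around their start sites, since these neighbours reached their maxima at different times and Cd274 alone of them passed the adjusted p between Th2 and the other conditions. The windows are taken from RefSeq (GRCm38.p6, 250 bases before to 50 after the start of the gene, plus strand), at chr19:29367188-29367487 and chr19:29410669-29410968. Capitals in the Cd274 window mark matches to the interferon regulatory factor type letters GAAANNGAA, here on the minus strand, and to the NFAT core GGAAA. Capitals in the Pdcd1lg2 window mark a match to the STAT6 type letters TTCNNNNGAA and to GGAAA.
Cd274: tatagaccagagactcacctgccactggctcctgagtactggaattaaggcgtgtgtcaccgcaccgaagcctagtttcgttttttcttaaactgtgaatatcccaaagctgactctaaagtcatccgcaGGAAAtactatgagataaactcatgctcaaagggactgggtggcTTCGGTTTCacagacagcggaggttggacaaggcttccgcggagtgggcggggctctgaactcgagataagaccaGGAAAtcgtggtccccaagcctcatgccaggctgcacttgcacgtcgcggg
Pdcd1lg2: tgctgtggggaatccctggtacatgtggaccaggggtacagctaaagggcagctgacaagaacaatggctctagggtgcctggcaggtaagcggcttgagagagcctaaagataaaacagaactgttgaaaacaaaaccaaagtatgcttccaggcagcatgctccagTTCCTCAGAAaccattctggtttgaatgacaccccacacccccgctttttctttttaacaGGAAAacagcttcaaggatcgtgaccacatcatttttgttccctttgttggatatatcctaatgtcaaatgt
Read on both strands, GAAANNGAA was found in 8.56% of all 32851 RefSeq windows of the same length, TTCNNNNGAA in 6.95% and GGAAA in 61.3%. Of the 9 member genes with a window (10 windows, 2 of them of Cd160, and none for Lag3), GAAANNGAA was present in those of Cd274, Ctla4 and Btla, TTCNNNNGAA in that of Pdcd1lg2 alone, and GGAAA in those of Ctla4, Pdcd1, Tigit, Cd160, Cd274 and Pdcd1lg2. The GAS type letters TTCNNNGAA matched 1 window of Cd160 (8.30% of all windows) and the AP-1 letters TGANTCA that of Havcr2 (7.81%). These are matches of letters, not measured sites.

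Cd200, the third ligand, is a surface glycoprotein that signals to CD200R on other leukocytes (chromosome 16, 45382135 to 45409053, minus strand, ENSMUSG00000022661.14). It measured 20.3 and 20.0 RPKM at rest and then 23.8, 47.5, 113, 173, 206 and 226 RPKM in Th0, 33.8, 87.6, 178, 178, 247 and 292 RPKM in Th1 and 45.4, 102, 152, 155, 176 and 196 RPKM in Th2 cultures from 4 to 24 h. The level was highest at 24 h in all 3 conditions, and all 18 cultures lay above both resting libraries. At 24 h the difference from rest was 3.51 ± 0.29 (SE), the largest of the 10 genes (adjusted p = 4.6e-08).

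Of the 7 receptors, Pdcd1 showed the largest difference from rest. PD-1 lies on chromosome 1 (94038305 to 94052553, minus strand, ENSMUSG00000026285.7) and its transcript stood at 7.30 and 8.35 RPKM at rest, from 278 and 379 reads. It measured 36.9, 45.1, 78.2, 68.7, 54.0 and 45.2 RPKM in Th0, 50.7, 95.1, 94.0, 67.0, 65.6 and 56.9 RPKM in Th1 and 53.0, 104, 92.1, 60.3, 46.9 and 33.1 RPKM in Th2 cultures. The maximum came at 8 h in Th1 and Th2 and at 12 h in Th0, where the 8 h library was below the Th1 and Th2 libraries of the same time. By 24 h the level was 57.8% of the maximum in Th0, 59.8% in Th1 and 31.7% in Th2, and every culture was still above rest. The difference from rest was 2.49 ± 0.28 (SE) at 4 h (adjusted p = 6.3e-06), 3.41 ± 0.28 (SE) at 12 h (adjusted p = 4.9e-08) and 2.42 ± 0.28 (SE) at 24 h (adjusted p = 2.4e-06).

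Tigit was highest at 4 h in all 3 conditions, as Ctla4 was in Th2 alone. It lies on chromosome 16 (43648867 to 43664146, minus strand, ENSMUSG00000071552.5) and measured 12.9 and 11.7 RPKM at rest. Th0 cultures held 51.1, 29.7, 25.8, 22.2, 16.4 and 13.1 RPKM from 4 to 24 h, Th1 cultures 36.1, 17.3, 16.4, 14.6, 10.5 and 10.1 RPKM, and Th2 cultures 46.0, 36.8, 32.3, 27.5, 23.4 and 16.5 RPKM. Each series was lowest at 24 h, and the Th1 libraries of 20 and 24 h lay below both resting libraries. The difference from rest was 1.80 ± 0.36 (SE) at 4 h (adjusted p = 0.0011) and 1.09 ± 0.36 (SE) at 8 h (adjusted p = 0.019), and the call at 8 h was lost without the first or second resting library (adjusted p = 0.068 and 0.1), without the Th0 cultures (adjusted p = 0.097) and without the Th2 cultures (0.86 on the log2 scale), in a range of adjusted p of 9.7e-04 to 0.1 over the 14 alternatives. At 24 h it was 0.07 ± 0.36 (SE) (adjusted p = 0.87), and it was -0.09 without the Th2 cultures.

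Lag3 followed the opposite order. This relative of CD4, which binds MHC class II, lies on chromosome 6 (124904361 to 124911705, minus strand, ENSMUSG00000030124.2) and measured 8.04 and 8.30 RPKM at rest. Th0 cultures held 3.92, 4.43, 13.5, 32.3, 47.1 and 41.6 RPKM, Th1 cultures 2.68, 7.28, 15.7, 26.9, 44.6 and 53.7 RPKM, and Th2 cultures 4.57, 8.35, 26.5, 48.9, 66.2 and 51.1 RPKM. All 3 libraries of 4 h were below both resting libraries, and all libraries from 12 h on were above them. The difference from rest was -1.06 ± 0.31 (SE) at 4 h (adjusted p = 0.014), 1.08 ± 0.31 (SE) at 12 h (adjusted p = 0.006) and 2.59 ± 0.31 (SE) at 20 h (adjusted p = 2.8e-06). The fall at 4 h was not called without the first or second resting library (adjusted p = 0.074 and 0.084) or the Th1 cultures (adjusted p = 0.11), in a range of 0.0014 to 0.11 over the 14 alternatives, nor with a pseudocount of 1 or under median-of-ratios or quantile scaling. The rise at 12 h was not called without the Th2 cultures (0.80 on the log2 scale).

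Btla was highest at 24 h in each condition. BTLA, a receptor for HVEM, is encoded on chromosome 16 (45224315 to 45257670, plus strand, ENSMUSG00000052013.15), and measured 34.8 and 33.5 RPKM at rest. Levels were 26.1, 45.8, 66.6, 73.5, 82.5 and 84.2 RPKM in Th0, 38.2, 74.2, 78.9, 73.4, 83.8 and 98.8 RPKM in Th1 and 61.2, 81.2, 81.4, 78.8, 85.8 and 114 RPKM in Th2 cultures. All libraries from 8 h on were above both resting libraries, and in Th1 and Th2 the 16 h value was below that of 12 h. The Th0 library of 4 h was below rest, whereas the Th1 and Th2 libraries of that time were above it, and the mean difference at 4 h was 0.20 ± 0.26 (SE) (adjusted p = 0.59). At 24 h the difference was 1.51 ± 0.26 (SE) (adjusted p = 1.0e-04), and at 16 h the call was lost under quantile normalization.

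Cd160, the other receptor for HVEM, was above the resting level at 8 or 12 h and below it at 24 h in each condition, with no call at any time. It lies on chromosome 3 (96798763 to 96829351, minus strand, ENSMUSG00000038304.14), overlaps Pdzk1, and measured 13.1 and 12.1 RPKM at rest. Th0 cultures held 3.75, 8.94, 20.6, 14.04, 9.94 and 6.68 RPKM, Th1 cultures 4.32, 16.6, 15.6, 11.6, 8.12 and 5.83 RPKM, and Th2 cultures 12.9, 33.1, 26.2, 16.4, 10.9 and 10.6 RPKM. At 4 h the Th0 and Th1 libraries were below rest and the Th2 library lay between the 2 resting libraries. The highest value came at 12 h in Th0 and at 8 h in Th1 and Th2. The mean differences from rest ran from -1.01 ± 0.46 (SE) at 4 h (adjusted p = 0.11) through 0.67 ± 0.46 (SE) at 12 h (adjusted p = 0.22) to -0.72 ± 0.46 (SE) at 24 h (adjusted p = 0.18). Without the Th2 cultures the difference at 4 h was -1.53 and was called (adjusted p = 5.5e-04, in a range of 5.5e-04 to 0.38 over the 14 alternatives). CD160 is also made by NK cells, whose markers summed to 161 to 163 RPKM at rest, 111 to 218 at 4 h and 46.4 to 67.2 at 24 h, and their part in these values was not tested.

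Ctla4 was the exception among the abundant genes, since its mean difference from rest was under 2-fold at all 6 times. It lies on chromosome 1 (60887000 to 60915832, plus strand, ENSMUSG00000026011.13), with the pseudogene Rpl18-ps1 inside its span, and measured 62.8 and 56.7 RPKM at rest. Th0 cultures held 56.6, 70.0, 58.4, 59.2, 72.9 and 86.4 RPKM, Th1 cultures 68.3, 69.6, 57.5, 73.4, 82.7 and 102 RPKM, and Th2 cultures 88.6, 65.1, 52.8, 44.9, 43.3 and 83.2 RPKM. In Th2 each library from 8 to 20 h was lower than the one before, with values below both resting libraries at 12, 16 and 20 h and above them at 24 h, while in Th1 it was highest at 24 h. The largest mean difference from rest was 0.59 ± 0.24 (SE), at 24 h (adjusted p = 0.036), which is under 2-fold. The sign of its difference at 12, 16 and 20 h changed with the scaling. Regulatory T cells are known for a high and steady level of CTLA-4, and their markers summed to 119 to 119.5 RPKM at rest and 409 to 530.4 RPKM at 24 h (7 markers, of which 3 were called higher and 2 lower at 24 h). These markers, Il2ra and Tnfrsf18 among them, did not move together, so their sum is no measure of the share of such cells. Markers of memory and activated T cells summed to 347 to 354 and 155 to 222 RPKM at these times (6 markers), and those of follicular helper T cells to 80.2 to 82.4 and 55.5 to 77.5 RPKM (6 markers). Such sums follow their most abundant markers, and neither is a measure of the share of such cells. The part of such cells in the levels of Ctla4 and the other members was not tested.

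Havcr2 stayed low. TIM-3, known best from differentiated Th1 cells, is encoded on chromosome 11 (46454935 to 46481255, plus strand, ENSMUSG00000020399.14), and measured 0.659 and 0.532 RPKM at rest. Th0 cultures held 0.813, 0.735, 1.01, 1.07, 0.947 and 1.05 RPKM, Th1 cultures 0.734, 0.999, 1.14, 1.13, 1.33 and 0.909 RPKM, and Th2 cultures 2.07, 3.37, 2.11, 2.25, 1.84 and 1.45 RPKM. Every culture was above both resting libraries, and every Th2 library was above every Th0 and Th1 library. The mean differences from rest were between 0.56 ± 0.43 (SE) at 4 h (adjusted p = 0.35) and 0.82 ± 0.43 (SE) at 8 h (adjusted p = 0.12), and none was called as deposited. Under quantile normalization the difference was called at 8, 12, 16, 20 and 24 h, at 1.21, 1.30, 1.29, 1.27 and 1.09 on the log2 scale. At these 5 times the call therefore depended on whether that normalization was used. The other alternatives, median-of-ratios and upper-quartile scaling among them, gave no call (11 of 12 at 8, 12, 16 and 20 h, 10 of 11 at 24 h).

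The skewing conditions were compared over the 18 cultures in a model that also held a term for each time point, which sets 6 pairs of libraries of the same time against each other. Per the study, these libraries are samples of 1 pool of cells taken at successive times. The 6 pairs are therefore not biological replicates, and the p-values do not measure the spread between animals. No member passed both the adjusted p and the 2-fold limit for Th2 against Th0 (2.01% of 10737 genes did), for Th2 against Th1 (1.96%) or for Th1 against Th0 (0.494%). With limma, an unadjusted p under 0.05 and no fold limit, 6, 6 and 4 of the 10 genes would count in these 3 comparisons. The share of all genes under that looser rule is not given here, so these counts cannot be judged against it. With the adjusted p alone, a rule chosen after seeing the data, 6 of 10 differed between Th2 and Th0, against 29.6% of all genes, and 5 of 10 between Th2 and Th1, against 12.2%. For Th1 against Th0 it was 1 of 10, Tigit, against 2.27%. The differences described next are therefore below 2-fold on average on the scale of log2(RPKM + 0.5), and the 3 comparisons share libraries. For Havcr2, which is low, this rests on the added 0.5. Its plain means over the 6 times were 2.18 RPKM in Th2, 0.937 in Th0 and 1.04 in Th1.

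**Figure D3:**
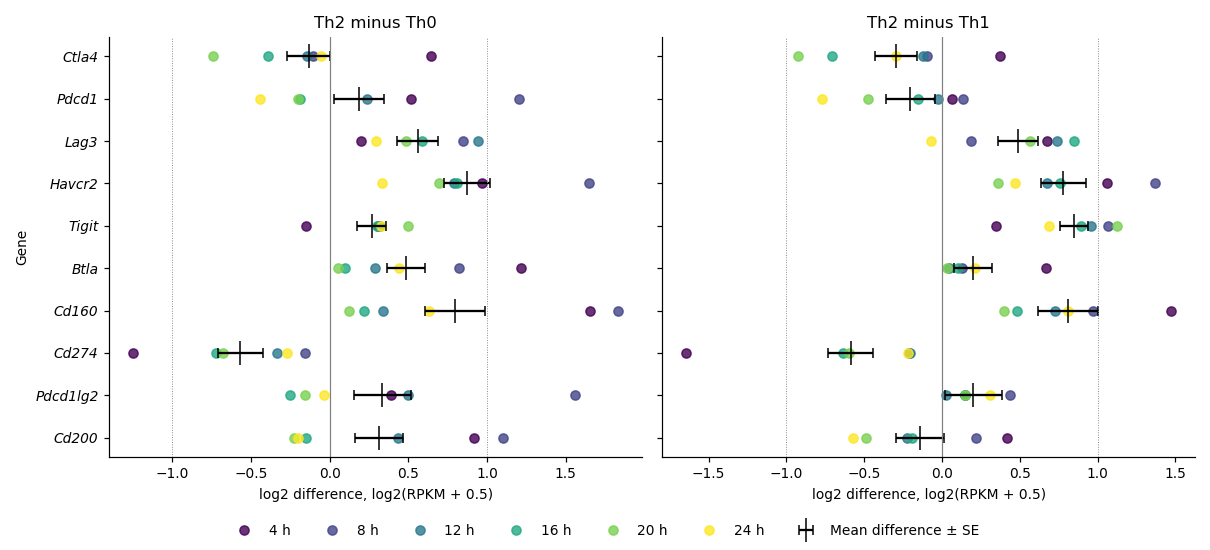
Difference of Th2 from Th0 (left) and from Th1 (right) for each gene, in log2(RPKM + 0.5), with 1 coloured point per time and a black bar for the mean difference and its SE. All 6 points of Havcr2 and Cd160 lie above 0 and all 6 of Cd274 below 0 in both panels, and dotted lines mark 2-fold.

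Havcr2, Cd160, Lag3 and Tigit were higher in Th2 cultures than in both others, and Cd274 was lower. Havcr2 differed by 0.87 ± 0.14 (SE) from Th0 (adjusted p = 4.5e-04) and by 0.78 ± 0.14 (SE) from Th1 (adjusted p = 0.0015), and was higher in Th2 at 6 of 6 times in each comparison. The ratio of Th2 to Th0 was largest at 8 h, at 4.59, and smallest at 24 h, at 1.38. With a pseudocount of 0.1 the difference from Th0 was 1.11 on the log2 scale and passed the 2-fold limit. Cd160 differed by 0.80 ± 0.19 (SE) from Th0 (adjusted p = 0.0065) and by 0.81 ± 0.19 (SE) from Th1 (adjusted p = 0.0094), again at 6 of 6 times, with ratios to Th0 of 3.43 at 4 h, 3.70 at 8 h and 1.09 at 20 h. For both genes the ratio to Th0 was widest at 8 h. NK cells and myeloid cells can express these receptors. NK markers summed to 46.4 to 125 RPKM in Th0, 56.5 to 218 in Th1 and 57.5 to 184 in Th2 cultures over the 6 times (7 markers). Dendritic cell markers summed to 4.54 to 10.4, 5.35 to 8.07 and 6.28 to 11.2 RPKM (8 markers, with Cd209a at 0 in all 3 libraries of 20 h). Monocyte and macrophage markers summed to 11.8 to 58.7, 12.7 to 47.0 and 8.14 to 80.0 RPKM (10 markers). Th2 held the highest of these last sums, at 4 h, and the lowest, at 24 h. Ranges over 6 times do not compare cultures of the same time. The part of these cells in the differences was not tested.

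Lag3 was higher in Th2 than in Th0 at 6 of 6 times (0.56 ± 0.13 (SE), adjusted p = 0.0054) and higher than in Th1 at 5 of 6 (0.49 ± 0.13 (SE), adjusted p = 0.019), and its ratio of Th2 to Th0 was largest at 12 h, at 1.96. The comparison with Th1 did not pass without 12, 16 or 20 h (adjusted p = 0.082, 0.1 and 0.074, in a range of 0.0087 to 0.1 over the 15 alternatives). Tigit was lower in Th1 than in Th0 at 6 of 6 times (-0.58 ± 0.09 (SE), adjusted p = 0.002), higher in Th2 than in Th1 at 6 of 6 (0.85 ± 0.09 (SE), adjusted p = 8.5e-06) and higher in Th2 than in Th0 at 5 of 6 (0.27 ± 0.09 (SE), adjusted p = 0.036). The last of these did not pass without the filter (adjusted p = 0.056) or without 8, 12, 16, 20 or 24 h (adjusted p = 0.075, 0.11, 0.096, 0.12 and 0.064), in a range of 0.0058 to 0.12 over the 15 alternatives. Btla was higher in Th2 than in Th0 at 6 of 6 times (0.49 ± 0.12 (SE), adjusted p = 0.008), with a difference from Th1 of 0.20 ± 0.12 (SE) (adjusted p = 0.33). Over 12 to 24 h alone its difference from Th0 was 0.22 (adjusted p = 0.064, in a range of 0.0057 to 0.064 over the 15 alternatives).

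Cd274 went the other way. It was lower in Th2 than in Th0 at 6 of 6 times (-0.57 ± 0.14 (SE), adjusted p = 0.0086) and lower than in Th1 at 6 of 6 (-0.59 ± 0.14 (SE), adjusted p = 0.012), and the ratio of Th2 to Th1 was 0.318 at 4 h and 0.868 at 12 h. The comparison with Th1 did not pass without 16 h (adjusted p = 0.053, in a range of 0.0068 to 0.053 over the 15 alternatives). Between Th1 and Th0 its difference was 0.02 ± 0.14 (SE) (adjusted p = 0.96). PD-L1 is known as a target of IFN-γ through IRF1, and the Th2 cultures held an antibody against IFN-γ. The transcript of Irf1 was lower in Th2, with a difference from Th0 of -2.20 (adjusted p = 1.4e-08), and its part in the level of Cd274 was not tested.

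Pdcd1lg2, Cd200, Pdcd1 and Ctla4 did not pass the adjusted p in either comparison with Th2, and in the comparison with Th0 the sign of the difference was not the same at all 6 times for any of the 4. Pdcd1lg2 differed between Th2 and Th0 by 0.33 ± 0.18 (SE) (adjusted p = 0.18), Cd200 by 0.31 ± 0.15 (SE) (adjusted p = 0.14), Pdcd1 by 0.19 ± 0.16 (SE) (adjusted p = 0.39) and Ctla4 by -0.13 ± 0.14 (SE) (adjusted p = 0.48). A model with a separate trend over hours for each condition tested whether a difference moved with time. For Th2 against Th0 it called 2 of 10 genes, against 5.15% of all genes: Cd200, whose difference moved by -0.07 ± 0.01 (SE) per hour (adjusted p = 0.007), and Pdcd1, by -0.07 ± 0.02 (SE) per hour (adjusted p = 0.026). Both were higher in Th2 than in Th0 at 4, 8 and 12 h and lower at 16, 20 and 24 h. The call of Cd200 was lost without 20 h (adjusted p = 0.059, in a range of 0.004 to 0.059 over the 14 alternatives). That of Pdcd1 was lost without the filter (adjusted p = 0.076) and without 12, 16, 20 or 24 h (adjusted p = 0.056, 0.052, 0.11 and 0.12, in a range of 0.0041 to 0.12 over the 14 alternatives). For Th2 against Th1 no member was called, against 1.09% of all genes, and for Th1 against Th0 none, against 0.0279%. With limma and an unadjusted p under 0.05, 4 and 1 members would count in these 2. The shares of all genes just given are at the adjusted p, and no share is given here for the unadjusted p.

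Actinomycin blocks new transcription, so levels afterwards reflect decay, here relative to the other RNAs of the library. Slopes of log2(RPKM + 0.1) per hour were tested with limma over the 4 libraries, and 3 of 10 genes had a slope below 0, against 11.9% of 10571 genes, and 1 a slope above 0, against 8.77%. Since values are relative to the whole library, a positive slope can stand for a slower fall than that of the average transcript. Pdcd1 measured 34.9, 34.4, 22.7 and 16.3 RPKM after 0, 1, 2 and 4 h, a slope of -0.30 ± 0.06 (SE) per hour (adjusted p = 9.2e-05). Pdcd1lg2 measured 8.03, 7.40, 4.44 and 4.11 RPKM, a slope of -0.26 ± 0.08 (SE) (adjusted p = 0.016). Cd200 measured 160.1, 142, 138 and 95.1 RPKM, a slope of -0.18 ± 0.06 (SE) (adjusted p = 0.01). These 3 transcripts were lower in each later library, and after 4 h they stood at 0.469, 0.512 and 0.594 of their starting level. The call of Pdcd1 was lost without the 4 h library (adjusted p = 0.15, in a range of 2.7e-05 to 0.15 over the 11 alternatives). Those of Pdcd1lg2 and Cd200 were lost without any one of the 0, 1 and 4 h libraries, with adjusted p of 0.24, 0.1 and 0.1 for Pdcd1lg2 (a range of 0.0081 to 0.24 over the 11 alternatives) and of 0.21, 0.075 and 0.63 for Cd200 (a range of 0.0014 to 0.63 over the 11 alternatives). That of Pdcd1lg2 was also lost without the filter (adjusted p = 0.089) and that of Cd200 without the intensity trend (adjusted p = 0.086).

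Lag3 measured 35.2, 43.3, 35.4 and 57.8 RPKM over the same 4 h, a slope of 0.16 ± 0.06 (SE) (adjusted p = 0.039) that was not called without the 0, 1 or 4 h library (adjusted p = 0.33, 0.089 and 0.99, in a range of 0.004 to 0.99 over the 11 alternatives), under median-of-ratios scaling, without the filter or without the intensity trend. The other 6 genes were not called. Cd274 measured 39.3, 31.9, 28.9 and 35.2 RPKM, with a slope of -0.03 ± 0.06 (SE) (adjusted p = 0.79), and Tigit 27.0, 35.8, 27.5 and 31.4 RPKM, with a slope of 0.02 ± 0.06 (SE) (adjusted p = 0.84). The slopes of Ctla4, Havcr2, Btla and Cd160 were 0.06, 0.09, 0.07 and -0.07 per hour, and the median of all genes was 0.00. An exact two-sided permutation of the 4 time points, which has 24 orders and cannot give a p below 0.042, gave p = 0.042 for Pdcd1 and Cd200, 0.083 for Pdcd1lg2 and 0.21 for Lag3.

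**Figure D4:**
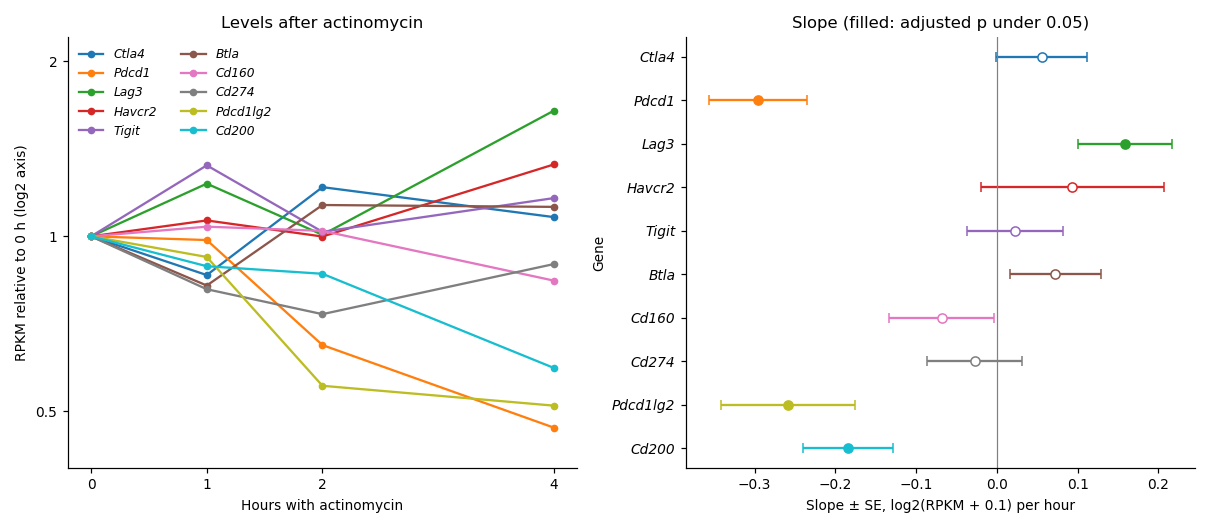
Left, RPKM relative to the 0 h library (log2 axis) against hours with actinomycin, 1 library per point. Right, slope of log2(RPKM + 0.1) per hour with its SE for each gene, filled where the adjusted p was under 0.05. Pdcd1, Pdcd1lg2 and Cd200 lie below 0 and Lag3 above it.

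The library at 0 h of actinomycin had been stimulated for 16 h, and was set beside the Th0, Th1 and Th2 cultures of that time as a description. Ctla4 and Btla were higher there than in all 3 cultures, with 122 RPKM against 44.9 to 73.4 for Ctla4. Pdcd1, Cd274 and Pdcd1lg2 were lower than in all 3, with 34.9 RPKM against 60.3 to 68.7 for Pdcd1 and 39.3 against 55.1 to 91.3 for Cd274. The other 5 genes lay within the range of the cultures. Over all genes that passed the minimum in these libraries, 28.2% were above and 39.0% below all 3 cultures, so such gaps were common.

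A list of 18 genes held binding partners of these molecules and related genes. Fgl2 is one of the latter and is not an established ligand of any member. Of the 11 that could be tested none was called higher than at rest at any time, 3 had fallen at 4 h, against 7.97% of all genes, and 8 at 24 h, against 17.4%. Lgals3, a galectin that binds LAG-3, was among those not called, with 18.6 RPKM at rest and 25.5 at 24 h (0.44, adjusted p = 0.13). The median difference at 24 h was -1.58, beside -0.04 over all genes. Those with the largest falls at 24 h were Cd86, a ligand of CTLA-4 and CD28 (-2.73, from 18.7 to 2.39 RPKM), Cd200r1, the receptor of CD200 (-2.58, from 10.7 to 1.38 RPKM), and Fgl2 (-2.17). Lgals9, the galectin bound by TIM-3, had fallen at 4 h already (-1.24), and Tnfrsf14, the gene of HVEM, was down at 24 h (-1.58, from 47.3 to 15.7 RPKM). CD86 and CD200R are made by myeloid cells and B cells. The summed markers of those cells were lower at 24 h, as given above, and the part of these cells in the falls was not tested. After actinomycin Fgl2 had a slope below 0 (-0.39 per hour) and Tnfrsf14 one above 0 (0.23 per hour). Between Th2 and Th0 no gene of this list was called, and between Th2 and Th1 only Fgl2 was, which was lower in Th2 (-1.14).

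A list of 5 receptors held those that share a ligand with a member, and Icos, a co-stimulatory receptor not known to do so in mice. Icos was called higher at all 6 times (1.58 at 4 h and 2.21 at 24 h, from 29.5 RPKM at rest to 139 at 24 h). Cd96, which shares ligands with TIGIT, was called lower at all 6 (-2.21 at 24 h). Cd226, the activating receptor for the ligands of TIGIT, was lower at 4 h (-1.07) and not called at 24 h (0.33, adjusted p = 0.28). Cd4, a co-receptor that shares MHC class II with LAG-3, was lower at 4, 8 and 12 h (-1.04 at 4 h). Cd28, the activating counterpart of CTLA-4, was called at no time (0.87 at 24 h). The median of the 5 was -1.04 at 4 h beside -0.04 over all genes, and 0.33 at 24 h beside -0.04. In the mean over times none was called between conditions, while the difference of Th2 from Th0 and from Th1 moved with time for Cd226 (0.07 and 0.07 per hour).

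Other inhibitory receptors, 23 genes of which 14 could be tested, held 5 that were lower at 4 h, against 7.97% of all genes, and 9 that were lower at 24 h, against 17.4%, with none higher at either time. Their median at 24 h was -2.00, beside -0.04 over all genes. The largest falls at 24 h were those of Lair1 (-3.40), Pirb (-2.94) and Cd300a (-2.89), receptors known from myeloid cells, while Cd22 (-2.39) and Cd72 (-1.93) are known from B cells. Summed monocyte, macrophage and B cell markers were lower at 24 h as well, and the part of these cells in the falls was not tested. Cd5 and Cd6, which restrain signalling in T cells, were called higher from 12 to 20 h (1.29 and 1.11 at 12 h). Between conditions, Pecam1 was lower in Th2 than in Th0 (-1.38) and Th1 (-1.10), Klrg1 was lower in Th2 than in Th1 (-1.40) and higher in Th1 than in Th0 (1.16), and Lilrb4a was higher in Th1 than in Th0 (1.26).

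Genes that act downstream of the receptors or carry them to the surface (25 genes, 23 tested) had a median of -0.08 at 24 h, beside -0.04 over all genes. Cblb, a ubiquitin ligase that restrains activation, was called higher from 4 h (1.76) to 20 h. At 4 h it was the only 1 of the 23 called higher, against 2.61% of all genes. Ptpn6, the gene of the phosphatase SHP-1, was lower at 4 h (-1.28) together with Inppl1 (-1.13), 2 of 23 against 7.97% of all genes. At 24 h Pik3r1 (-1.94) and Pag1 (-1.68) were lower, 2 of 23 against 17.4% of all genes, and none was higher, against 12.7%. Trat1, which helps to carry CTLA-4 to the surface, was lower in Th1 than in Th0 (-1.72) and higher in Th2 than in Th1 (1.51). Of 23 transcription factors known to act on these genes, 4 were higher at 4 h (Nr4a1 at 2.19, Bcl6 at 1.49, Stat3 at 1.24 and Hif1a at 1.13), against 2.61% of all genes, and 2 lower, against 7.97% (Nfatc2 at -1.30 and Maf at -1.29). At 24 h 2 were higher, Myc (2.58) and Eomes (1.02), against 12.7% of all genes, and 6 lower, against 17.4%. Irf1 and Tbx21 were lower in Th2 cultures than in Th0 and in Th1 (-1.78 and -2.23 for Tbx21). After actinomycin 13 of the 23 had a slope below 0, against 11.9% of all genes, and none above it, against 8.77%, with a median of -0.25 per hour beside 0.00 over all genes.

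The genes whose profile over the 20 libraries of the time course was most like that of a member were named by Pearson's r of log2(RPKM + 0.5), as a description over libraries that share the 2 resting samples and the time points. For Pdcd1 they were Cdkn1a (r = 0.98) and Usp31 (r = 0.98), for Lag3 Ndufa10 (r = 0.99) and Tmem109 (r = 0.99), for Tigit Uhrf1bp1l (r = 0.94) and Sidt2 (r = 0.92) and for Btla Nhp2l1 (r = 0.99) and Eef1e1 (r = 0.99). For Cd274 they were Casc1 (r = 0.97) and Socs5 (r = 0.94), for Pdcd1lg2 Spry1 (r = 0.96) and Ccdc137 (r = 0.96) and for Cd200 Fkbp1a (r = 0.99) and Hk2 (r = 0.99). Likeness was lower for Havcr2, with Npas2 (r = 0.88) and Epcam (r = 0.86), for Cd160, with Atf4 (r = 0.90) and Camk2d (r = 0.89), and for Ctla4, with Rgs1 (r = 0.75) and Gnaq (r = 0.74). Among the members themselves Btla and Cd200 were the pair most alike (r = 0.93), followed by Pdcd1 and Pdcd1lg2 (r = 0.86).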

How the data were processed

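The authors sequenced RNA of 24 libraries and deposited 1 table of RPKM values, 1 entry per gene symbol and 1 column per library, with 22009 named entries. The submitters' processing notes name GRCm38 and BWA without a role or version, and the library's strandedness and the counting tool are not given in the sources used here, so overlapping genes cannot be told apart. Groups came from the labels. Members and gene lists were chosen with earlier results of these data known.

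Values were taken as deposited. limma 3.58.1 (R 4.3.3) was fitted on log2(RPKM + 0.5) over every gene whose mean reached 1 RPKM, with a trend of variance on intensity, and p-values were adjusted by Benjamini-Hochberg over all genes fitted. Time points (3 cultures each) were compared with the 2 resting libraries over 20 libraries, and conditions over the 18 cultures with terms for time, called at an adjusted p under 0.05 and 2-fold. Trends over hours and slopes after actinomycin, on log2(RPKM + 0.1), were called at an adjusted p under 0.05. The procedure was run on simulated data with planted changes and independent errors between libraries. The real libraries are, per the study, samples of 1 pool, so that run does not show how the tests behave on them. The alternatives changed the pseudocount (0.1, 0.5 or 1), the minimum (none or 5 RPKM), the scaling (quantile, upper-quartile or median-of-ratios) or left out the intensity trend, and took subsets of libraries or times, leaving each library, condition or time out in turn. Named were the 10 members, for each of them the 2 genes with the highest correlation, and from each list up to the 3 largest called rises and falls of a comparison. Cd22, Cd72, Hif1a, Cd28, Lgals3 and the fall of Tnfrsf14 fall outside this rule and were named after their values were seen. Depths of 17512385 to 33017133 reads were recovered from the steps of genes with 1 transcript. They rest on the commonest value, shared by 857 of 2369 such genes tried (36.2%). Values within 0.02 of a whole read were taken as whole, at the first transcript length that fitted. That length differed from the longest annotated transcript for Pdcd1 (1928 against 1930 bases), Tigit (963 against 919) and Pdcd1lg2 (1645 against 1729). These depths limit only what counting error covers. Python 3.11.15, numpy 2.4.6, pandas 2.3.3 and scipy 1.17.1 were used. Promoter windows are from RefSeq (GRCm38.p6) and gene positions from the GRCm38 annotation.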

Additional observations from a re-analysis of the deposited data

Results flagged for a closer look

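Cd200 and Pdcd1 were singled out because the difference between Th2 and Th0 cultures moved with time by the limma test of a condition and hours interaction. The difference of Cd200 moved by -0.0726 per hour on the log2 scale (SE 0.013, adjusted p = 0.007), with Th2 higher than Th0 at 3 of 6 times (4, 8 and 12 h) and lower at the other 3. The difference of Pdcd1 moved by -0.0674 per hour (SE 0.016, adjusted p = 0.026), with the same times above and below. Extreme samples were not looked for, since no group has 4 or more libraries except the actinomycin series, whose libraries differ in time.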

How the results depend on the processing

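Counts of members called moved in these settings. The count at 4 h against rest fell from 5 to 3 with a pseudocount of 1. Members that differed between Th2 and Th0 went from 0 to 1 with a pseudocount of 0.1, and with no fold threshold, an alternative chosen after seeing the data, to 6, those between Th2 and Th1 to 5 and those between Th1 and Th0 to 1. Members whose difference between Th2 and Th0 moved with time went from 2 to 1 with no filter, and slopes after actinomycin from 4 to 2 with no filter and from 4 to 2 with no intensity trend. Leaving out 1 library, condition or time, the count ranged from 3 to 6 at 4 h, 4 to 5 at 8 h, 5 to 7 at 12 h and was 6 in each case at 16, 20 and 24 h. It was 0 in each case for the 3 comparisons of conditions at 2-fold, 0 to 4 for Th2 against Th0 moving with time, 0 to 2 for Th2 against Th1, 0 for Th1 against Th0, and 0 to 4 for the slopes. The cause was not tested. No member that was called changed direction in any alternative. Of all 130 member results, 26 that were not called changed sign in at least 1 alternative. Among the 76 member results counted below, these were the following. Over 12 to 24 h alone Th2 minus Th0 was -0.037 for Cd200 and -0.149 for Pdcd1, and leaving out 1 time it ran from -0.016 to 0.314 for Pdcd1. Leaving out 1 library or condition, the difference from rest ran from -0.11 to 0.497 for Btla at 4 h and from -0.095 to 0.249 for Tigit at 24 h. The slope ran from -0.108 to 0.016 for Cd160, -0.222 to 0.061 for Cd274, -0.001 to 0.116 for Havcr2 and -0.04 to 0.054 for Tigit. Of 1046 alternatives for these 76 member results, 998 gave the same direction and call. Other scalings moved the median of all genes by -0.14 to 0.17 on the log2 scale in the comparisons with rest. No paired analysis was possible because the groups share fewer than 2 replicate numbers in the labels, and conditions were matched by time point instead. With 1 library per condition and time, no difference at a single time has a replicate, and a count of 4 actinomycin libraries leaves little room to drop any.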
